A study of Mus musculus with 52 samples.

Results

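A group of 36 genes of marrow granulocytes and red cell precursors was followed across primary mouse osteosarcomas, bone tumours whose cells lay down bone matrix. The genes were taken by name from a fixed list and not by their values. Of the 36 genes, 35 were found among the 20730 genes of the count table; Ahsp was not analysed here. The granulocyte genes were 19. They comprised 5 genes of azurophil granules and promyelocytes (Elane, Mpo, Prtn3, Ctsg, Ms4a3), 7 genes of specific and gelatinase granules (Camp, Ltf, Ngp, Lcn2, Mmp8, Chil3, Fcnb), 5 genes of mature neutrophils (S100a8, S100a9, Retnlg, Csf3r, Cxcr2) and the transcription factor genes Cebpe and Gfi1. The erythroid genes were 16. They comprised the globin genes Hba-a1, Hba-a2, Hbb-bs and Hbb-bt with the haem synthesis gene Alas2, the receptors and transcription factors Epor, Tfrc, Klf1 and Gata1, and the membrane and cytosol genes Slc4a1, Sptb, Ermap, Rhag, Rhd, Car1 and Tspo2.

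The tumours carried 1 of 3 Trp53 genotypes, and RNA sequencing of flash-frozen, crushed tumours gave 52 libraries. There were 17 libraries of p53R245W/fl tumours, with a tryptophan missense allele over a floxed allele, 19 of p53R172H/fl tumours, with a histidine missense allele over a floxed allele, and 16 of p53fl/fl tumours, with both alleles floxed. A floxed allele is one that Cre recombinase removes, and all 3 groups carry at least 1. The Cre driver, the age of the animals, the tumour site and any sorting or perfusion were not stated in the sources used here. Each library was a piece of whole tumour, so fewer cells of a type and less RNA per cell cannot be told apart in any value below.

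Neutrophils are made in bone marrow in steps that leave separate sets of transcripts. Promyelocytes make the azurophil granule enzymes, the later myelocytes and metamyelocytes make the specific and gelatinase granule proteins, and the mature cell, which leaves marrow by way of the chemokine receptor CXCR2, has largely stopped transcribing granule genes. C/EBP epsilon and Gfi1 are needed for these steps in mice. Red cells arise beside them from precursors that depend on Gata1, Klf1 and erythropoietin, fill with haemoglobin and discard the nucleus; young circulating red cells still carry globin mRNA but few other transcripts.

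Library totals were 21596798 to 67223388 counts, with a median of 51026968.5. The floor of detection, 3 counts, corresponds to 0.0437 to 0.161 CPM (counts scaled to a common library size), and such floors cover counting error only. Trp53 itself had 22 to 60.1 CPM in p53R245W/fl libraries, 26.0 to 49.2 CPM in p53R172H/fl libraries and 8.52 to 20.1 CPM in p53fl/fl libraries, so the missense groups did not overlap p53fl/fl. The bone markers Col1a1, Runx2 and Sp7 were high in most libraries, but the lowest p53R245W/fl values were 1053 CPM for Col1a1 and 0.053 CPM for Sp7, against p53R245W/fl medians of 23246 and 128 CPM. The 5 libraries of low Col1a1 were all p53R245W/fl (tumours 408, 494, 1580, 1831 and 1835). Column names split the libraries into set A (16, no p53R245W/fl), set B (18) and set C (18). Each set B library resembled 1 library outside set B with the same genotype (Spearman rho 0.636 to 0.932 over 12168 other genes) far more than the next (0.521 at most). The 52 libraries were therefore also treated as 34 units, of which 18 are matched pairs, although the labels give every library its own tumour number. Where matched libraries are counted separately, p-values over libraries are too small. The labels do not say which libraries come from separate animals.

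Marrow transcripts were scarce in most tumours. All 35 genes together took 0.0115% to 0.141% of the counts, and the 4 globin genes 0.0007% to 0.0907%. Per length (RPKM, CPM divided by the exon length in kilobases), the highest medians over the 52 libraries were those of Hbb-bs (94.2 RPKM), Hba-a1 (23.4 RPKM) and Tfrc (22.9 RPKM), which encodes the transferrin receptor that all dividing cells use for iron. Among granulocyte genes, S100a9 and S100a8, the 2 chains of calprotectin, led with medians of 5.20 and 3.59 RPKM. The granule genes were lower, with a median of 0.908 RPKM for Mpo and 0.783 RPKM for Camp. Ms4a3, a gene of granulocyte and monocyte progenitors, had a median of 0 RPKM. After the filter on low counts 29 genes could be tested, and Ctsg, Ms4a3, Cebpe, Gata1, Rhag and Tspo2 could not.

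**Figure D1:**
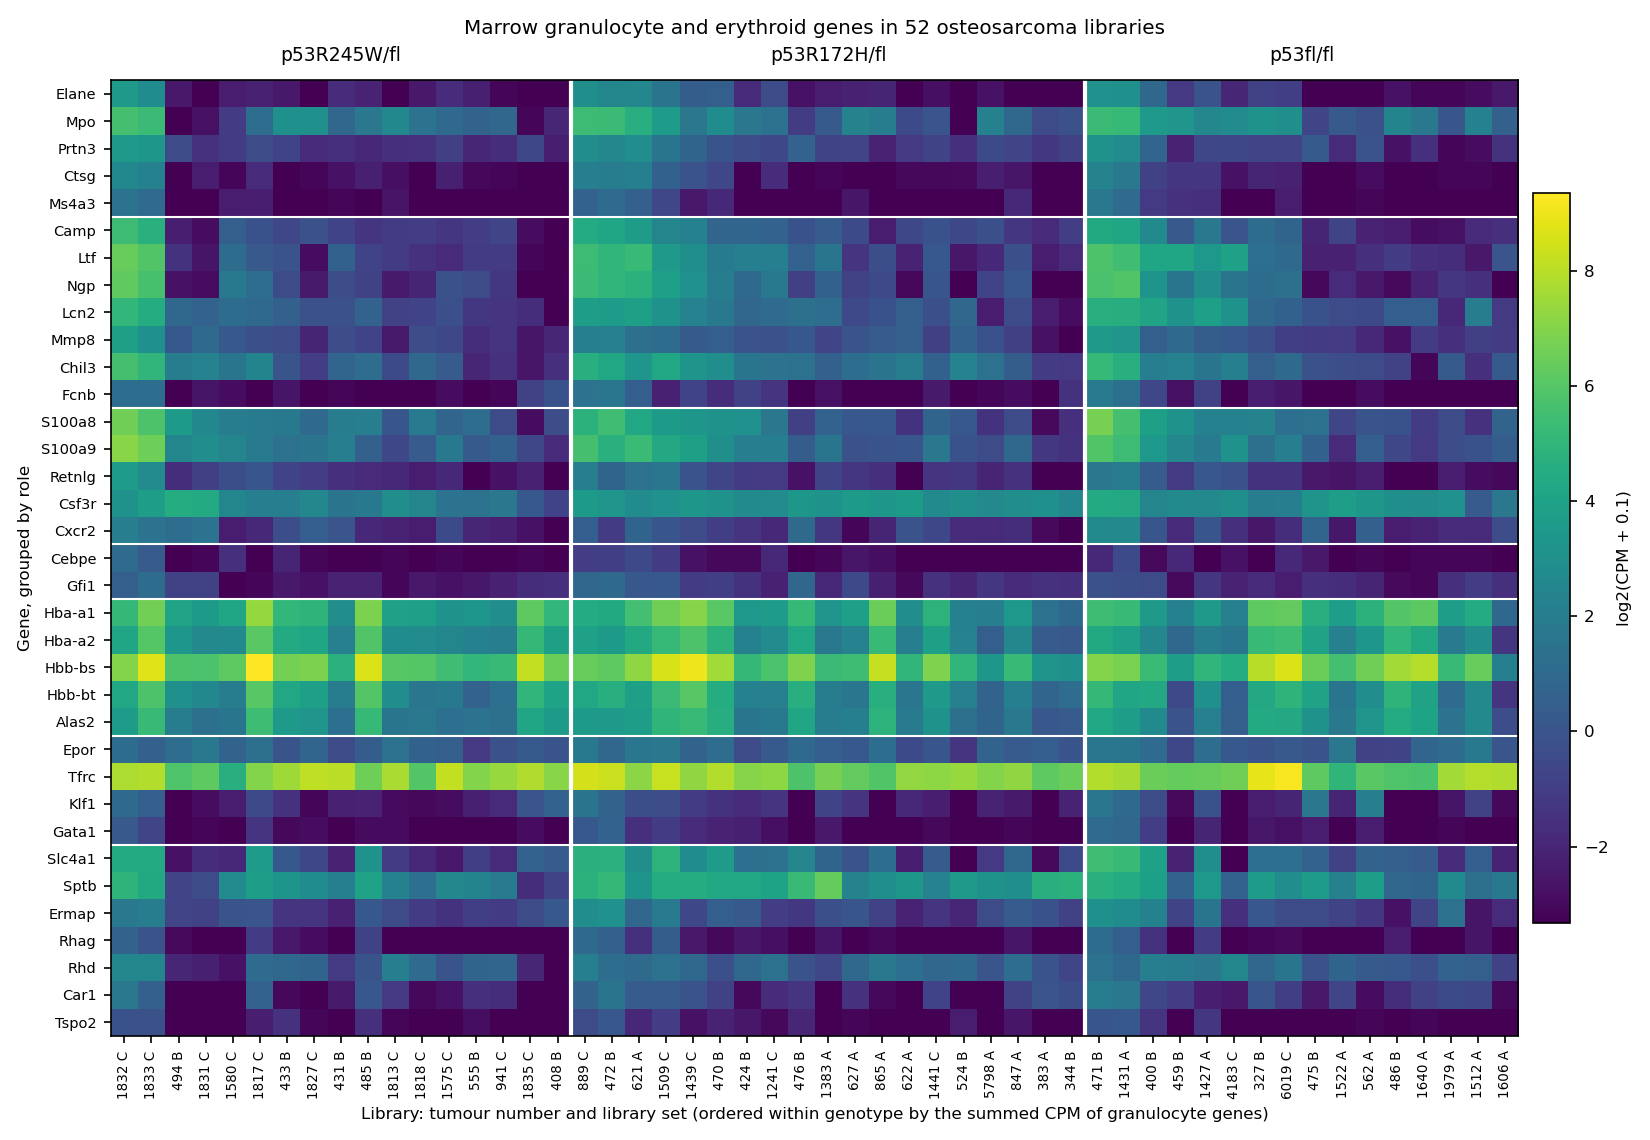
Level of each gene (rows, grouped by role) in each of the 52 libraries (columns), as log2(CPM + 0.1), within p53R245W/fl, p53R172H/fl and p53fl/fl from left to right. Within a genotype, libraries are ordered by the summed CPM of the granulocyte genes, and a few columns at the left of each block are bright over nearly all granulocyte rows while the globin rows follow another order.

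The granule genes were concentrated in a few tumours of each genotype. Camp, which encodes the antimicrobial cathelicidin peptide (chromosome 9, 109847379 to 109849617, minus strand, GRCm38), had 0, 0.400 and 41.5 CPM as lowest, median and highest value in p53R245W/fl libraries. It had 0.0941, 0.827 and 22.1 CPM in p53R172H/fl libraries and 0.0332, 0.711 and 20.8 CPM in p53fl/fl libraries. The groups overlapped over nearly their whole range, and in each the highest library lay more than 20 times above the median. Camp reached 10 CPM in 7 libraries, which are 5 of the 34 units. These were p53R245W/fl tumours 1832 (41.5 CPM) and 1833 (26.1 CPM), p53R172H/fl tumours 889 and 472, a matched pair (22.1 and 17.3 CPM), p53R172H/fl tumour 621 (12.9 CPM), and p53fl/fl tumours 471 and 1431, a matched pair (20.8 and 17.1 CPM). By units, that is 2 of 11 p53R245W/fl, 2 of 13 p53R172H/fl and 1 of 10 p53fl/fl. The next library, p53fl/fl tumour 400, had 6.44 CPM, with 3.27 CPM in its match, tumour 1427. Both libraries of a matched pair lay above the limit of 10 CPM or both lay below it. This depends on the limit. At 5 CPM the pair 400 and 1427 would be split, as would the p53R172H/fl pair 1509 and 470 (5.41 and 1.65 CPM).

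Azurophil granule genes went with Camp. Elane, the gene of neutrophil elastase (chromosome 10, 79886247 to 79888215, plus strand, GRCm38), had 0, 0.0842 and 10.9 CPM as lowest, median and highest value in p53R245W/fl libraries, 0, 0.126 and 7.71 CPM in p53R172H/fl libraries and 0, 0.121 and 8.48 CPM in p53fl/fl libraries. Median Elane thus lay within the range of the floor in every genotype. In the 7 libraries with 10 CPM or more of Camp, which were picked by Camp and are compared here as a description only, Elane had 5.58 to 10.9 CPM, against 2.84 CPM at most in the other 45. Mpo, which encodes myeloperoxidase, had 0, 1.93 and 49.1 CPM in p53R245W/fl libraries, 0, 3.09 and 41.4 CPM in p53R172H/fl libraries, and 0.523, 5.37 and 39.3 CPM in p53fl/fl libraries. It had 25.1 to 49.1 CPM in the 7 libraries and 12.7 CPM at most elsewhere. Prtn3 (proteinase 3) and Ctsg (cathepsin G) followed, with 5.80 to 11.6 and 3.21 to 5.83 CPM in the 7 libraries against at most 2.92 and 1.43 CPM in the others. Ms4a3 was the lowest of the group, with 0, 0 and 2.70 CPM in p53R245W/fl libraries, 0, 0 and 2.03 CPM in p53R172H/fl libraries, and 0, 0 and 3.29 CPM in p53fl/fl libraries. Its 7 highest values, 1.36 to 3.29 CPM, were again those of the 7 libraries, and the rest reached 0.539 CPM.

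Specific granule genes reached the highest levels of the granule genes. Ltf, the gene of the iron-binding lactoferrin, had 0, 0.368 and 83.5 CPM in p53R245W/fl libraries, 0.0786, 1.5 and 40.8 CPM in p53R172H/fl libraries and 0.0828, 1.43 and 55.6 CPM in p53fl/fl libraries. In the 7 libraries Ltf had 32.6 to 83.5 CPM and Ngp, neutrophilic granule protein, 27.4 to 75.4 CPM, against at most 17.3 and 14 CPM in the other 45. Mmp8 (neutrophil collagenase) had 2.45 to 14.3 CPM in the 7 and 2.15 CPM at most elsewhere. Lcn2 and Chil3 were less exclusive, with 2 and 1 of the other libraries at or above the lowest of the 7. Lcn2 encodes lipocalin 2, which other cell types also make, and Chil3 a chitinase-like protein that mouse macrophages also make. Chil3 had the highest median by CPM of the specific and gelatinase granule genes, with 0.0714, 1.66 and 48.4 CPM in p53R245W/fl libraries, 0.329, 2.82 and 25.6 CPM in p53R172H/fl libraries, and 0.0166, 1.21 and 35.5 CPM in p53fl/fl libraries. Fcnb, the ficolin B gene, had the lowest median of these genes, with 0, 0.0177 and 2.27 CPM in p53R245W/fl libraries, 0, 0.0894 and 3.01 CPM in p53R172H/fl libraries and 0, 0.0164 and 3.78 CPM in p53fl/fl libraries.

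The proportions of granule transcripts were compared across these tumours. Over the 7 libraries the ratio of Elane to Camp ran from 0.263 to 0.466, a span of 1.77 times, although 3 genotypes and 3 library sets were involved. Ltf over Camp spanned 1.59 times (1.84 to 2.92), Mpo over Camp 1.91 times (1.18 to 2.26), Ngp over Camp 1.94 times (1.78 to 3.45) and Lcn2 over Camp 2.29 times (0.589 to 1.35). Mmp8 and Fcnb had the widest spans of the granule genes, 2.94 times (0.190 to 0.560) and 3.33 times (0.0545 to 0.181). The median span over Camp was 2.26 times for the 11 other granule genes (1.59 to 3.33), 4.01 times for the 7 genes of mature neutrophils and transcription factors (2.38 to 16.5, highest for Cxcr2) and 4.60 times for the 16 erythroid genes (2.06 to 6.27, with 5.20 for Hbb-bs), so the ranges overlapped. Tumour 1833 was among the 8 highest libraries for 19 of 19 granulocyte genes, tumours 471, 1832 and 1431 for 18 each, 889 and 621 for 17 each, and 472 for 16. Most of these libraries also ranked high for erythroid genes: 1833 was among the 8 highest for 12 of 16 erythroid genes, 889 for 11, 471 for 10, 472 and 1832 for 9 each, 1431 for 8 and 621 for 1.

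Of the 5 genes of mature neutrophils, 3 went with the granule genes. S100a9 had 26.1 to 137 CPM in the 7 libraries and at most 20.1 CPM elsewhere, S100a8 19.2 to 106 CPM against at most 14.6 CPM, and Retnlg, a resistin-like gene, 1.60 to 12.4 CPM against at most 3.05 CPM, with 1 other library at or above its lowest value in the 7. Csf3r, the receptor of the growth factor G-CSF, and Cxcr2 did not follow them. Csf3r had 0.482, 4.21 and 22.9 CPM in p53R245W/fl libraries, 5.72, 8.31 and 11.9 CPM in p53R172H/fl libraries, and 1.14, 7.70 and 21.1 CPM in p53fl/fl libraries, and 21 of the other 45 libraries were at or above the lowest of the 7. Cxcr2 had 0, 0.174 and 4.13 CPM in p53R245W/fl libraries, 0, 0.309 and 1.98 CPM in p53R172H/fl libraries and 0.0737, 0.229 and 6.67 CPM in p53fl/fl libraries, with 17 other libraries at or above the lowest of the 7. The matched p53R245W/fl tumours 494 and 1831 had the clearest split. They had 22.9 and 21.5 CPM of Csf3r, 2.23 and 2.71 CPM of Cxcr2 and 11.7 and 5.90 CPM of S100a8, but 0.106 and 0.0335 CPM of Camp, 0.0795 and 0 CPM of Elane, and 0 and 0.0503 CPM of Mpo. Of the other granule genes, 3 were not low in them, with 3.84 and 4.83 CPM of Chil3, 1.75 and 1.46 CPM of Lcn2 and 1.03 and 1.89 CPM of Mmp8. Prtn3 had 0.663 and 0.251 CPM. The rest were low, with 0.265 and 0.0670 CPM of Ltf and 0.0530 and 0.0335 CPM of Ngp. Ctsg had 0 and 0.101 CPM, Fcnb 0 and 0.0670 CPM, and Ms4a3 0 CPM in both. Both libraries also had the highest sums of the macrophage and monocyte list (6898 and 6771 CPM, against at most 3235 CPM in the rest) and of the stem and progenitor list (573 and 723 CPM), and both are among the 5 libraries of low Col1a1; the part of these in the values was not tested. The p53fl/fl pair 475 and 562 was similar in Cxcr2 (1.63 and 1.36 CPM) with low Camp (0.146 and 0.131 CPM).

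Other pairs had proportions of the granule genes outside those of the 7 libraries. In the p53fl/fl pair 459 and 4183, Ltf had 17.2 and 15 CPM and Lcn2 8.68 and 8.74 CPM beside 1.06 and 0.911 CPM of Camp. In the p53R245W/fl pair 433 and 1827, Mpo had 8.21 and 7.95 CPM beside 0.0838 and 0 CPM of Elane. In each case the departure was seen in both libraries of the pair. Elane in 433 and 1827 lay within or under the range of the floor, so its exact proportion to Mpo cannot be read. The pairs were picked after their values were seen, and the spread of these proportions within matched pairs was not measured.

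The granulocyte transcription factors were low throughout. Gfi1, a repressor needed for neutrophil formation in mice, had 0, 0.124 and 2.11 CPM in p53R245W/fl libraries, 0.0217, 0.256 and 2.0 CPM in p53R172H/fl libraries and 0.0166, 0.216 and 0.788 CPM in p53fl/fl libraries. Cebpe, which encodes C/EBP epsilon, had 0, 0.0146 and 2.04 CPM in p53R245W/fl libraries, 0, 0.0197 and 0.583 CPM in p53R172H/fl libraries and 0, 0.0166 and 0.611 CPM in p53fl/fl libraries. The lowest Cebpe value in the 7 libraries was 0.162 CPM, which 4 of the others reached.

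**Figure D2:**
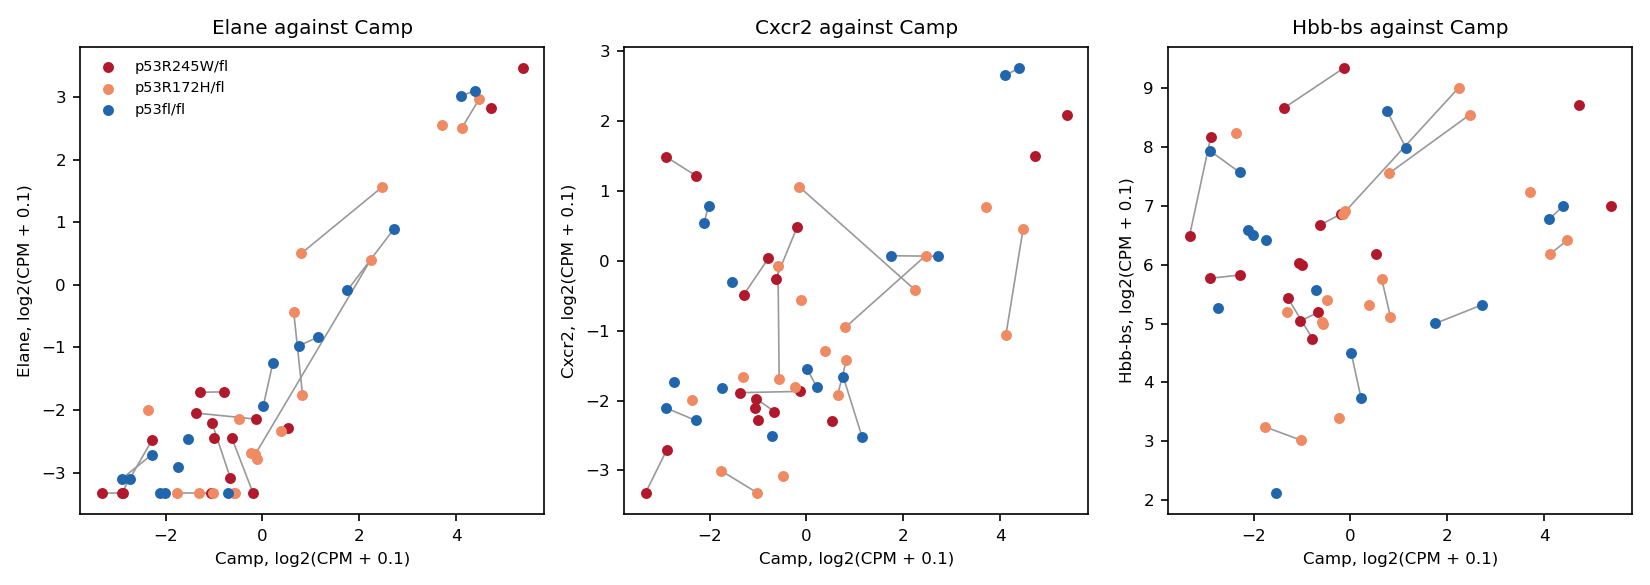
Elane, Cxcr2 and Hbb-bs (vertical axes) against Camp (horizontal axes), all as log2(CPM + 0.1), in 52 libraries coloured by genotype, with grey lines joining the 18 matched pairs. Elane climbs with Camp at the right end (Pearson r 0.90 over 34 units), Cxcr2 scatters more widely and Hbb-bs is high both with and without Camp.

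Across all tumours the relation was tested over the 34 units, on log2 CPM, with two-sided permutation tests of 100000 resamples adjusted over 6 relations. Elane and Camp had a Pearson r of 0.904 and a Spearman rho of 0.785 (adjusted permutation p 3e-05 for both, the smallest possible here after adjustment), and r was 0.868 without the 2 units farthest from the median of Elane. Within sets r was 0.863 (A), 0.887 (B) and 0.924 (C) over libraries. Camp and Cxcr2 were less closely related, with r 0.589 and rho 0.450 (adjusted permutation p 0.0004 and 0.0155). Without the 2 units farthest in Camp this relation had r 0.463 and rho 0.342 (adjusted permutation p 0.0154 and 0.112), so its rank correlation rested on those units; within sets r was 0.628 (A), 0.400 (B) and 0.538 (C). Camp and Vpreb1, a gene of marrow B cell precursors, had r 0.162 and rho 0.136 (adjusted permutation p 0.357 and 0.441). Camp and Col1a1 had r 0.407 and rho 0.357 (adjusted permutation p 0.0258 and 0.0583), with r 0.379 without the 2 farthest units and r of -0.124 (A), 0.626 (B) and 0.672 (C) within sets. That last relation therefore did not hold in set A.

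A wider search asked which of 18881 genes ranked highest by Spearman rho with Camp over the 34 units, as a description with no test, since all genes share the libraries and their depth. Of the 15 other granulocyte genes measured there, 12 were among the 100 highest. Ngp was 1st (rho 0.858), Retnlg 2nd (0.807), Ltf 3rd (0.802), Elane 5th (0.785) and Prtn3 6th (0.780). Csf3r stood at rank 2356 (rho 0.238), Gfi1 at rank 308 (0.434) and Cxcr2 at rank 243 (0.450). Erythroid genes were among the 100 in 4 of 13 cases, led by Sptb at rank 16 (0.654) and Slc4a1 at rank 35 (0.577). Outside the lists, the genes most like the mean of the granulocyte genes were Ifitm6 (0.739) and Trem3 (0.683), with Ceacam1, Hdc, Cdh15, Mapk9, Lrg1, Mmrn1 and F5 (0.602) also among the 10 highest.

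**Figure D3:**
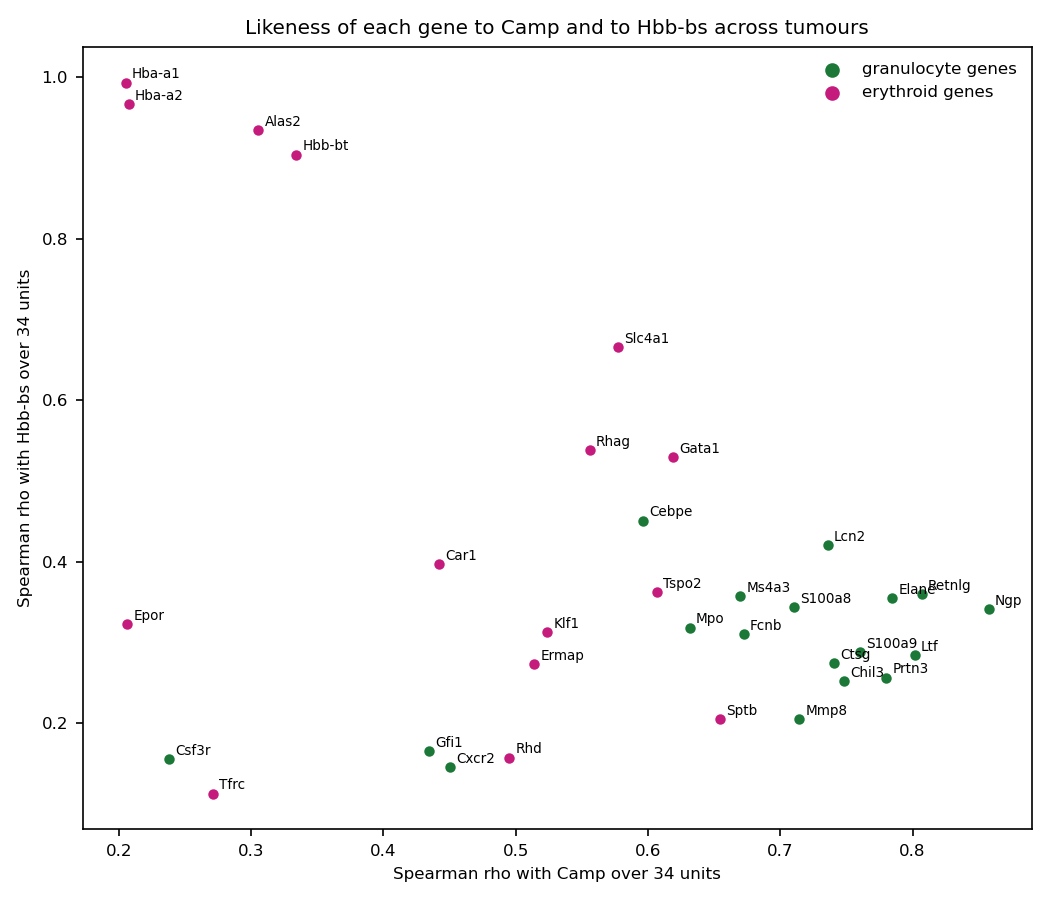
Each point is a gene, placed by its Spearman rho over 34 units with Camp (horizontal axis) and with Hbb-bs (vertical axis). Granule genes lie at the lower right, the globin chains and Alas2 at the top, and Csf3r and Tfrc low on both axes.

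Haemoglobin genes formed a second block, whose highest tumours overlapped only in part with those rich in Camp. Hbb-bs, an adult beta globin gene (chromosome 7, 103826534 to 103828096, minus strand, GRCm38), had 26.7, 72.3 and 647 CPM as lowest, median and highest value in p53R245W/fl libraries, 7.99, 53.9 and 515 CPM in p53R172H/fl libraries and 4.26, 87.7 and 390 CPM in p53fl/fl libraries. No library was at 0, and the groups overlapped. The highest were p53R245W/fl tumour 1817 (647 CPM, with 404 CPM in its match 485), p53R172H/fl tumour 1439 (515 CPM, with 117 CPM in its match 476) and p53R245W/fl tumour 1833 (418 CPM). Of these, only 1833 had 10 CPM or more of Camp. Camp was low in the pair 1817 and 485 (0.805 and 0.284 CPM), in p53R172H/fl tumour 865 (0.0941 CPM, with 303 CPM of Hbb-bs) and in the p53fl/fl pair 1640 and 486 (0.0332 and 0.105 CPM, with 246 and 190 CPM of Hbb-bs). In 19 of the 45 libraries below 10 CPM of Camp, Hbb-bs was at or above its lowest value in the 7. The 7 libraries themselves had 72.4 to 418 CPM of Hbb-bs, against a median of 72.3 CPM over all 52. Tumour 1509 (p53R172H/fl, 374 CPM of Hbb-bs and 5.41 CPM of Camp) ranked high for both lineages. It was among the 8 highest libraries for 13 of 16 erythroid and 12 of 19 granulocyte genes.

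Alas2, the erythroid form of the first enzyme of haem synthesis, followed the globins. It had 2.35, 4.06 and 42.5 CPM in p53R245W/fl libraries, 0.977, 4.38 and 38.4 CPM in p53R172H/fl libraries and 0.687, 7.72 and 21.7 CPM in p53fl/fl libraries. Over the 34 units Alas2 and Hbb-bs had r 0.953 and rho 0.935 (adjusted permutation p 3e-05 for both), with r 0.942 without the 2 units farthest in Alas2 and r of 0.976 (A), 0.966 (B) and 0.967 (C) within sets. Camp and Alas2 had r 0.331 and rho 0.305 (adjusted permutation p 0.0677 and 0.0947), with r 0.220 without the 2 farthest units. By rank with Hbb-bs, Hba-a1 was 1st (rho 0.994), Hba-a2 2nd (0.966), Alas2 3rd (0.935) and Hbb-bt 4th (0.904), and Slc4a1 was 7th (0.666). No granulocyte gene was among the 100 highest (0 of 16), but 8 of 16 were among the 1000 highest of 18881 genes. Their median rho with Hbb-bs was 0.286 (0.145 to 0.421). Of 12 other erythroid genes measured there, 5 were among the 100 and 8 among the 1000 highest. Outside the lists the genes most like Hbb-bs included Thrsp (0.630), Cyp2e1 (0.605), Adipoq (0.588), Plin1 (0.570) and Retn (0.567), several of which are known from fat cells. Genes most like the mean of the erythroid genes were Apol11b (0.795), Cfap161 (0.720) and Cd300lg (0.717), followed by Cdh15, Tubb1, Rerg, Cd1d1, Stab2, Ceacam1 and Cmtm8 (0.638).

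Receptors, transcription factors and membrane genes did not form 1 block with the globins. Tfrc had 24.2, 166 and 288 CPM in p53R245W/fl libraries, 56.1, 144 and 364 CPM in p53R172H/fl libraries and 30.9, 92.9 and 589 CPM in p53fl/fl libraries, and its rank with Hbb-bs was 5028 (rho 0.113). Gata1, the transcription factor that red cell and platelet precursors share, had 0, 0.0168 and 1.07 CPM in p53R245W/fl libraries, 0, 0.0224 and 1.49 CPM in p53R172H/fl libraries and 0, 0.0325 and 2.02 CPM in p53fl/fl libraries, so its medians lay under the floor. Slc4a1, which encodes the red cell anion exchanger band 3, had 0.0530, 0.406 and 21.6 CPM in p53R245W/fl libraries, 0, 2.31 and 28.6 CPM in p53R172H/fl libraries and 0, 1.41 and 44.0 CPM in p53fl/fl libraries. Its highest values, 44.0 and 37.2 CPM, were in the p53fl/fl pair 471 and 1431. That pair also had 2.02 and 1.69 CPM of Gata1, 2.14 and 1.27 CPM of Rhag (Rh-associated glycoprotein) and 3.88 and 3.18 CPM of Car1 (carbonic anhydrase 1), beside 128 and 110 CPM of Hbb-bs.

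Klf1, an erythroid transcription factor that activates globin genes (chromosome 8, 84901928 to 84905291), had 0, 0.120 and 1.96 CPM in p53R245W/fl libraries, 0, 0.197 and 2.85 CPM in p53R172H/fl libraries and 0, 0.148 and 4.22 CPM in p53fl/fl libraries. The highest values, 4.22 and 3.12 CPM, came from the p53fl/fl pair 562 and 475, in which Gata1 had 0.0984 and 0.105 CPM and Rhag 0 CPM in both. Klf1 went with Camp (r 0.581, rho 0.524, adjusted permutation p 0.00098 and 0.0044 over 10 relations) and less with Hbb-bs (r 0.309, rho 0.313, adjusted permutation p 0.0943 and 0.0987); these relations were added after the values were seen. Without the 2 units farthest in Klf1, r with Camp was 0.668. Within sets it was 0.595 (A), 0.326 (B) and 0.659 (C).

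The remaining membrane gene with high levels was Sptb (chromosome 12, 76580488 to 76710547, minus strand), which encodes beta spectrin of the red cell membrane skeleton and is also transcribed in skeletal muscle. It had 0.214, 5.19 and 30.4 CPM in p53R245W/fl libraries, 4.83, 18.5 and 80.6 CPM in p53R172H/fl libraries and 1.47, 6.92 and 26.3 CPM in p53fl/fl libraries. The highest value was in p53R172H/fl tumour 1383. Tspo2, an erythroid member of the translocator protein family, was the lowest, at 0, 0 and 0.827 CPM in p53R245W/fl libraries, 0, 0.0543 and 0.975 CPM in p53R172H/fl libraries and 0, 0 and 1.01 CPM in p53fl/fl libraries. The coding sequences of Hba-a1 and Hba-a2 differ at 1 of 429 bases and those of Hbb-bs and Hbb-bt at 1 of 444 bases, so the split of reads within each globin pair is uncertain. Mpo, Prtn3, Gfi1, Alas2 and Sptb overlap exons of genes on the opposite strand; libraries were stranded per the labels, but the strand setting of the counting is not given in the sources used here.

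Promoters of the listed genes, whether or not they moved together, were read for letters bound by factors of each lineage. The windows were the 250 bases before each RefSeq gene start (GRCm38.p6), searched on both strands. Letters searched for C/EBP factors were TTGCNNAA. Those for PU.1, a factor of the whole myeloid lineage, were GAGGAAG. For Gata1 and its relatives the letters AGATAA were used. For Klf1 and its relatives they were CCNCNCCC. Promoters were found for 18 granulocyte and 14 erythroid genes. C/EBP letters were present in 8 of 18 granulocyte promoters (44.4%), in 1 of 14 erythroid promoters (7.14%) and in 9.55% of all 27025 promoters. PU.1 letters were in 8 of 18 (44.4%), 2 of 14 (14.3%) and 10.4% of all. GATA letters were in 3 of 18 (16.7%), 4 of 14 (28.6%) and 10.3% of all, and KLF letters in 10 of 18 (55.6%), 8 of 14 (57.1%) and 45.6% of all. A match is a description of letters and not a bound site. The windows of 5 of the genes in the 2 blocks above are shown 5′ to 3′ along the gene, with every match in capitals. Neighbouring KLF matches overlap in Alas2.
Elane: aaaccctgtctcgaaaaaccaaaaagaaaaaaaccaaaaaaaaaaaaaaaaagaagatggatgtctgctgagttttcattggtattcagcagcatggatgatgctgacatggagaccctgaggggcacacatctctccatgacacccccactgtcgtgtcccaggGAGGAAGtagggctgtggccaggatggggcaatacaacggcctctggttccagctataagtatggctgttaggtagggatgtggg
Ngp: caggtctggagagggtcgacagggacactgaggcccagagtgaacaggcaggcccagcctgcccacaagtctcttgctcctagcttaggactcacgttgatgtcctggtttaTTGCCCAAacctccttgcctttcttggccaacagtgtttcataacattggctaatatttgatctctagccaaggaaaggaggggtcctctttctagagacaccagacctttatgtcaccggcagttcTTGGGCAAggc
Mmp8: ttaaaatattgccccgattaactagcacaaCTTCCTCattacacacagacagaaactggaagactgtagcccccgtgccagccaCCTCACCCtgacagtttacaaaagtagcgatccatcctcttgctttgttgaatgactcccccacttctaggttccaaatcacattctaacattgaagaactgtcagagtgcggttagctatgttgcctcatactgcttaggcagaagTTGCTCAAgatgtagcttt
Hbb-bs: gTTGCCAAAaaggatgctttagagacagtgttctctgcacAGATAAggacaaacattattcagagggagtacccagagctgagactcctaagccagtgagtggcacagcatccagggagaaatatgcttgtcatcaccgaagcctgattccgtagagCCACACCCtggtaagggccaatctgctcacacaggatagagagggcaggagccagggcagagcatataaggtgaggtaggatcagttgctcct
Alas2: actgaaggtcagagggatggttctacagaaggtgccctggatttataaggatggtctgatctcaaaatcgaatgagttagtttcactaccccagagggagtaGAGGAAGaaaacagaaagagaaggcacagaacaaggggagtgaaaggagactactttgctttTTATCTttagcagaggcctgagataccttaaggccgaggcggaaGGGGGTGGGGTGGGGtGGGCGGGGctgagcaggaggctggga
The Elane window (chr10:79886062-79886311, plus strand) has 1 PU.1 match. The Ngp window (chr9:110419558-110419807, plus strand) has 2 C/EBP matches, and the Mmp8 window (chr9:7558179-7558428, plus strand) has 1 match each for PU.1, KLF and C/EBP. The Hbb-bs window (chr7:103827929-103828178, minus strand) has 1 match each for C/EBP, GATA and KLF. The Alas2 window (chrX:150547167-150547416, plus strand) has 1 PU.1, 1 GATA and 4 KLF matches. Elane and Ngp, which ranked 5th and 1st by likeness to Camp, share no match of the same motif in these windows. Other genes of the 2 blocks, not shown, varied in their matches. The S100a9 window had 1 GATA, 4 KLF and 1 C/EBP match. The Ltf window had 1 GATA, 2 KLF and 1 C/EBP match, and the Mpo window 2 KLF and 2 PU.1 matches. The Camp window had 1 KLF match and none for C/EBP, PU.1 or GATA. Those of Hba-a1 and Hba-a2 had no match of any motif, and that of Hbb-bt had 1 KLF match only.

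Between p53R245W/fl and p53fl/fl tumours no marrow gene passed the test. By edgeR's quasi-likelihood test with Benjamini-Hochberg adjustment over 18882 genes, 0 of 29 genes were called, beside 17.8% of all genes tested. None had an unadjusted p under 0.05 (0 of 29), and DESeq2 also called 0, with 0 at an unadjusted p under 0.05, beside 20% of all genes. With matched libraries summed to 34 units edgeR called 0 of 30 (0 at an unadjusted p under 0.05), beside 9.04% of all genes. Fold changes ran from -1.09 (Klf1) to 0.96 (Retnlg) on the log2 scale, with a median of -0.14 over the 29 genes and 0.04 over all genes. Camp differed by 0.35 (SE 0.90, adjusted p 0.831) and Hbb-bs by 0.48 (SE 0.53, adjusted p 0.567) in edgeR's test. The standard errors of the granule genes, near 1 on this scale, leave room for differences of 2-fold or more in either direction.

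The direction of the granulocyte genes in this comparison depended on single tumours. Their median log2 fold change was -0.12, but 1.75 without the p53fl/fl pair 471 and 1431, the only p53fl/fl tumour with 10 CPM or more of Camp, and -0.79 without p53R245W/fl tumour 1832. Without 471 and 1431, S100a9 was called higher (2.41, SE 0.85, adjusted p 0.0493 by edgeR, beside 13.7% of all genes called). Without the p53R245W/fl pair 494 and 1831, Csf3r was called lower (-0.85, SE 0.29, adjusted p 0.0410 by edgeR, beside 15.4% of all genes). These were the only calls of a marrow gene in 34 fits that each left out 1 unit, a check chosen after the data were seen. The direction also differed between library sets, which hold different tumours. Of the tumours rich in Camp, p53R245W/fl tumours 1832 and 1833 are in set C, and p53fl/fl tumours 471 and 1431 are in sets B and A. Within the 18 matched pairs the median log2 difference of Camp, set B minus its match, was 0.155. The part of the set itself in the direction was not tested. The median over all tested marrow genes was -2.15 within set B (29 of 29 negative, 6 libraries a group, 0 called by edgeR and 9 at an unadjusted p under 0.05, beside 0.022% of all genes called), where median Camp was 0.335 CPM in p53R245W/fl and 1.59 CPM in p53fl/fl libraries, and 1.79 within set C, where p53fl/fl had only 2 libraries (0 called by edgeR, 0 at an unadjusted p under 0.05, beside 0%). With the set as a covariate it was -1.02 (28 of 29 negative, 0 called by edgeR, 2 at an unadjusted p under 0.05, beside 5.32%).

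Between p53R172H/fl and p53fl/fl tumours likewise 0 of 29 genes were called by edgeR, beside 3.75% of all genes, with 1 at an unadjusted p under 0.05; DESeq2 called 0, with 3 at an unadjusted p under 0.05, beside 6.34%. Summed to 34 units 0 of 30 were called by edgeR (1 at an unadjusted p under 0.05), beside 0.259%. Fold changes ran from -1.21 (Cxcr2, SE 0.66, adjusted p 0.316) to 1.23 (Sptb, SE 0.47, adjusted p 0.130), with a median of 0.02 over the 29 genes and -0.02 over all genes. Camp differed by 0.17 (SE 0.88) and Hbb-bs by 0.07 (SE 0.51). The median of the granulocyte genes was 0.02, 1.46 without 471 and 1431, and -0.81 without the p53R172H/fl pair 472 and 889. Over all tested marrow genes it was -0.31 within set A, -0.54 within set B and 1.73 within set C. Whether this genotype effect differed between sets was tested by interaction: 0 of 27 marrow genes passed (lowest adjusted p 0.865 by edgeR, 0 at an unadjusted p under 0.05), beside 0.135% of all genes.

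**Figure D4:**
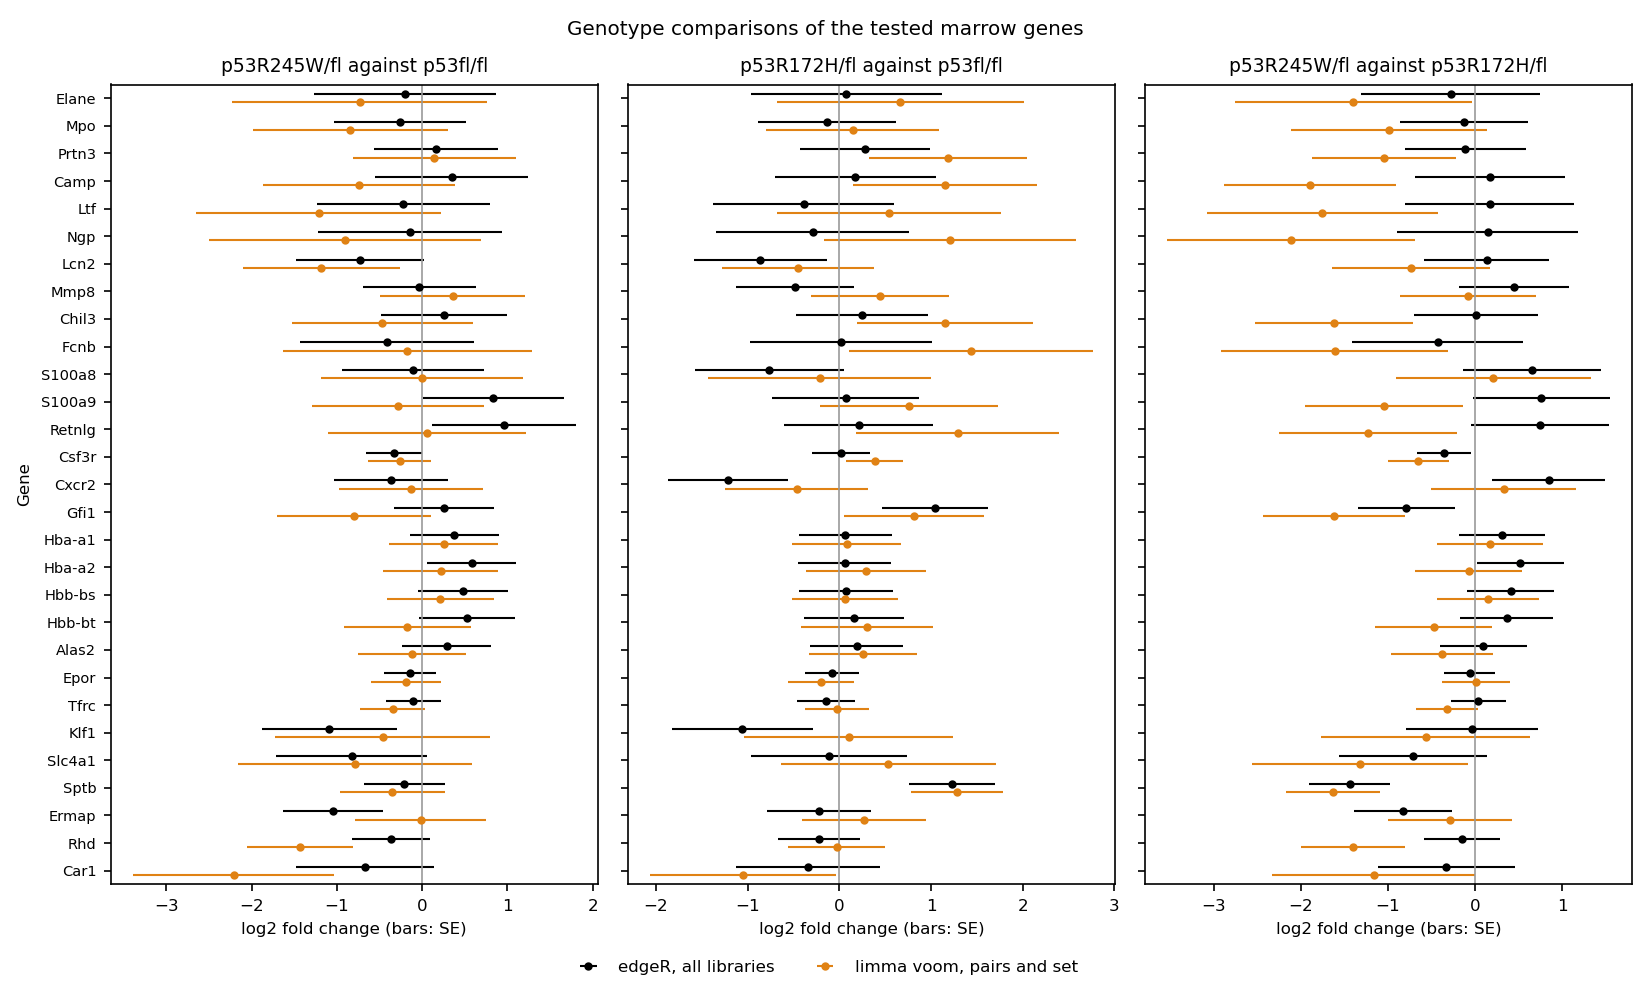
Log2 fold changes (points) with their standard errors (bars) of the 29 tested genes in the 3 genotype comparisons, from edgeR over all 52 libraries (black) and from limma voom with library set and matched pairs (orange). Bars of most genes cross 0, and the estimates of the 2 fits differ most for granule genes; Sptb lies apart at the left of the p53R245W/fl against p53R172H/fl panel.

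Between p53R245W/fl and p53R172H/fl tumours, Sptb alone was called. It was lower in p53R245W/fl libraries by edgeR's test (-1.44, SE 0.47, adjusted p 0.0158), 1 of 29 genes beside 30.9% of all genes, and DESeq2 called it too (-1.47, adjusted p 0.00409, beside 33% of all genes). The call held in each of 34 fits that left out 1 unit (-1.73 to -1.19, highest adjusted p 0.0407). It was lost when matched libraries were summed to 34 units (-1.15, adjusted p 0.170, beside 15.2% of all genes called), with Col1a1 as a covariate (-0.95, adjusted p 0.137), without the libraries of low Col1a1 (-1.05, adjusted p 0.0768) and with pairs and set in limma voom (-1.63, adjusted p 0.0904). Muscle transcripts were also lower at the median: the summed level of 12 skeletal muscle genes, a list added after the values were seen, had a median of 1173 CPM in p53R245W/fl (47.1 to 8560) and 3416 CPM in p53R172H/fl libraries (275 to 43234). In p53fl/fl libraries the muscle sum was lower still, with a median of 555 CPM (95.4 to 7071). Median Sptb did not follow it there, with 6.92 CPM in p53fl/fl against 5.19 CPM in p53R245W/fl libraries. Sptb went with the muscle gene Ckm over the 34 units (r 0.586, rho 0.573, adjusted permutation p 0.00098 and 0.002 over 10 relations; r 0.492 without the 2 units farthest in Sptb, and r of 0.549, 0.561 and 0.762 within sets A, B and C), and not detectably with Hbb-bs (r 0.119, rho 0.205, adjusted permutation p 0.504 and 0.272). With Camp, Sptb had a rho of 0.654, given above as a description without a test. The part of muscle in the Sptb difference was not tested. When 1 unit was left out, further calls were Gfi1 without tumour 1833 (-1.38, SE 0.55, adjusted p 0.0463 by edgeR, beside 32.2% of all genes) and Csf3r without 494 and 1831 (-0.87, SE 0.29, adjusted p 0.0193 by edgeR, beside 27.3%).

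Other blood lineage genes were read in the same comparisons, over 52 libraries with matched libraries counted separately, so these p-values are too small. With pairs and set in limma voom, 3 of 18882 genes were called for p53R245W/fl against p53fl/fl. For p53R172H/fl against p53fl/fl 2 were called, and for p53R245W/fl against p53R172H/fl 293. Values of that fit for the genes named below are not given here. Against p53fl/fl, p53R245W/fl tumours had 4 of 39 further erythroid genes called by edgeR: Bnip3l (0.54, SE 0.16, adjusted p 0.0169), which clears mitochondria from maturing red cells, and the haem enzyme gene Urod (0.40, adjusted p 0.0275) rose, and Zfpm1, the Gata1 cofactor FOG-1 (-0.77, SE 0.23, adjusted p 0.0160), and the haem enzyme gene Ppox (-0.43, adjusted p 0.0304) fell. That share is below the 17.8% of all genes given above. Against p53fl/fl, p53R172H/fl tumours had the neutrophil attractant gene Cxcl1 lower (-1.69, SE 0.51, adjusted p 0.0460 by edgeR); the call was lost in 18 of 34 fits that left out 1 unit, and the value was -0.99 (adjusted p 0.272) without 471 and 1431. Between p53R245W/fl and p53R172H/fl tumours, 4 of 24 further granulocyte genes were higher, a share close to the 18.2% of all genes that were higher, among them Trem1 (1.27, SE 0.48, adjusted p 0.0385), Ncf4 (1.13, SE 0.29, adjusted p 0.00273) and Lyz2 (1.03, SE 0.33, adjusted p 0.0136), all of which macrophages also express. The macrophage gene Mrc1 moved with them (1.45, SE 0.40, adjusted p 0.00542 by edgeR), and the summed macrophage list had a median of 1370 CPM in p53R245W/fl (181 to 6898, the highest in the pair 494 and 1831) and 1267 CPM in p53R172H/fl libraries (580 to 2319); its part in the result was not tested.

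Matched libraries allowed the library set itself to be compared within a pair, where genotype cancels. In set B against the match of each library, 7 of 26 marrow genes were called by edgeR with the pair as a block, beside 50.2% of 17409 genes. S100a8 was higher in set B (0.86, SE 0.29, adjusted p 0.0189), in 16 of 18 pairs, and Sptb was higher (0.22, SE 0.08, adjusted p 0.0247). Epor, the erythropoietin receptor gene, was lower (-0.59, SE 0.16, adjusted p 0.00307), as were Rhd (-0.51, SE 0.19, adjusted p 0.0250), Hbb-bs (-0.50, SE 0.14, adjusted p 0.00607), Tfrc (-0.25, SE 0.09, adjusted p 0.0186) and Csf3r (-0.20, SE 0.07, adjusted p 0.0181). Hbb-bs was higher in set B in 3 of 18 pairs and Epor in 3 of 18. Without the least alike pair, 476 and 1439, S100a8 was at 1.04 (adjusted p 1.07e-05) and Sptb was no longer called (0.19, adjusted p 0.0535).

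Ratios between related genes were compared in the same pairs. S100a8 over S100a9, the 2 chains of calprotectin, had a median of 1.69 in set B, 0.952 in set A and 0.690 in set C, and was higher in set B in 15 of 15 pairs with 10 counts or more of both genes in both libraries. Hbb-bs over Hbb-bt, copies of the beta globin gene whose reads may be split with error, had medians of 6.47, 11.7 and 9.65 in sets B, A and C and was higher in set B in 2 of 18 pairs. Hba-a1 over Hba-a2, likewise copies of the alpha globin gene, had medians of 1.89, 2.88 and 1.97 and was higher in set B in 7 of 18 pairs, so it had no common direction. Differences between units were also compared with the spread within pairs, after the mean shift of set B was removed for each gene. For 23 marrow genes of at least 1 CPM on average, the median ratio of the SD between units to that within pairs was 3.08. It was 2.78 for 14933 genes. The ratio does not set differences between tumours against those between library sets. The median SD between units was 1.78 on the log2 scale for the marrow genes and 0.583 for all.

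**Figure D5:**
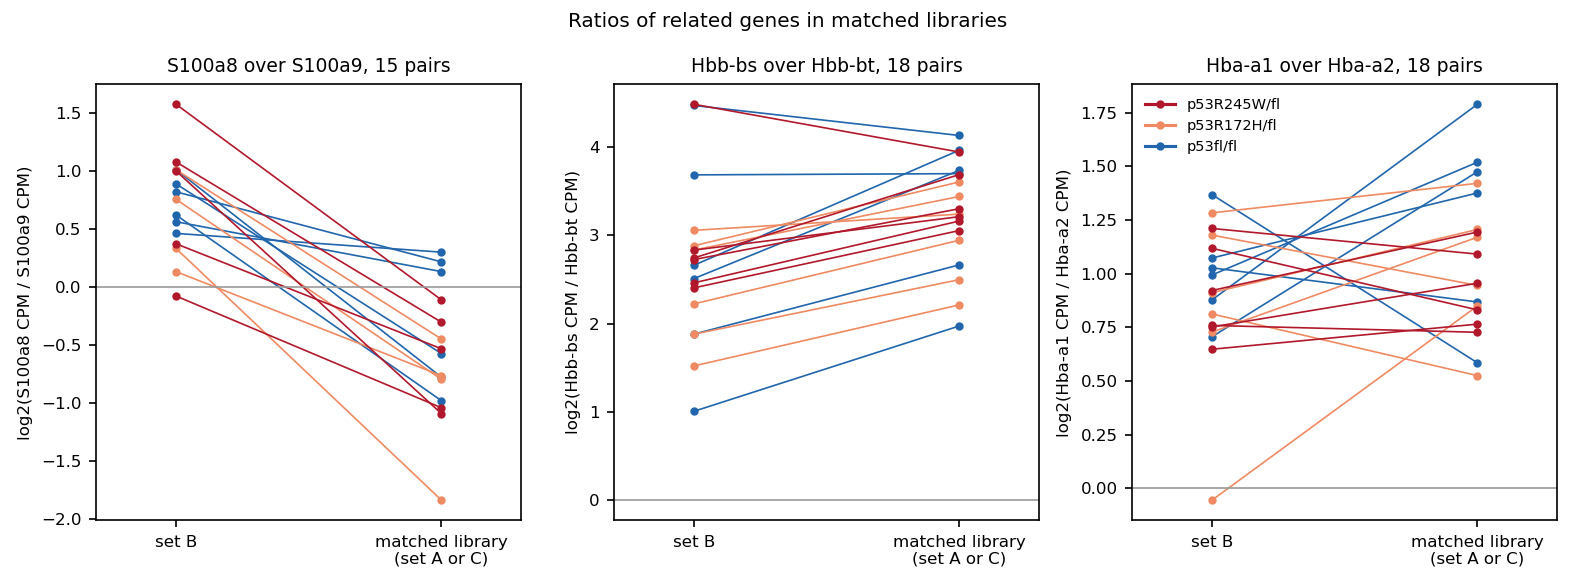
Log2 ratio of the CPM of related genes in set B (left of each panel) and in its match from the other sets (right), with 1 line per pair coloured by genotype. All 15 lines of S100a8 over S100a9 fall towards the matched library, most lines of Hbb-bs over Hbb-bt rise, and those of Hba-a1 over Hba-a2 run both ways.

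In set A the column names carry prefixes whose meaning is not given in the sources used here: FM and WFM (9 libraries) and FNM and WFNM (7 libraries). With genotype as a covariate, 0 of 27 marrow genes were called between M and NM prefixes by edgeR, beside 0.00548% of all genes (1 of 18242), with 10 marrow genes at an unadjusted p under 0.05. The 14 granulocyte genes tested had a median log2 fold change of 2.67 and the 13 erythroid genes a median of 0.36. Camp had 0.0332, 0.610 and 17.1 CPM as lowest, median and highest value in M libraries, against 0.0501, 0.195 and 0.745 CPM in NM libraries, and differed by 3.83 (SE 1.20, adjusted p 0.998 by edgeR). Lcn2 had 0.343, 2.21 and 23.2 CPM in M libraries and 0.0931, 0.623 and 0.828 CPM in NM libraries (3.79, SE 0.95, adjusted p 0.998 by edgeR). Hbb-bs had 4.26, 42.0 and 246 CPM in M libraries and 9.38, 38.5 and 303 CPM in NM libraries. DESeq2 called Lcn2 (3.80, adjusted p 0.00432) and Ltf (5.18, adjusted p 0.0184), 2 of the 4 genes it called in all (0.0223%). Tumours 1431 and 621, both with M prefixes, hold the 2 highest Camp values of set A. Without them, in edgeR's fit, the granulocyte median was 0.92, Camp differed by 1.63 and Ltf by 2.63, and edgeR called 0 marrow genes beside 0% of all genes, with 2 at an unadjusted p under 0.05; DESeq2 was not run without them.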

How the data were processed

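Whole-tumour stranded mRNA libraries were sequenced, and the authors deposited 1 table of raw counts per gene, not normalized, for 52 libraries; per the submitters' processing notes STAR and GRCm38 were used, with no version given. The counting program and its strand setting were not stated in the sources used here. No gene of the table totals fewer than 260 counts, and 0 columns were left out. Genotypes came from the labels; sets and prefixes came from column names, so p-values measure the spread between these libraries. Gene symbols were matched for 20668 of 20730 identifiers.

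Counts were tested with edgeR 4.0.16 in R 4.3.3 (trimmed mean of M values scaling, filterByExpr with a minimum count of 10, robust quasi-likelihood F test, 52 libraries sharing 1 spread, Benjamini-Hochberg adjustment over all genes, called at an adjusted p under 0.05). The standard error is the absolute log2 fold change over the root of F. CPM used the same scaling. Correlations used log2 CPM with a prior count of 2, averaged within matched pairs. Matched pairs were found from residuals of log2 CPM after genotype and set, without the marrow, bone and other lineage genes listed or sex-linked genes. Alternatives were relative log expression factors, no filter, a minimum count of 50, set or Col1a1 as covariates, sums of matched libraries, DESeq2 1.42.0, and limma 3.58.1 voom with set and pairs (pair correlation 0.857). Descriptions used Python 3.11.15, numpy 2.4.6 and pandas 2.3.3. Promoters came from RefSeq tables of GRCm38.p6. The edgeR genotype fit and the edgeR fit of matched pairs were tested on simulated counts with known changes. The limma and DESeq2 steps were not.

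The genes and all lists were chosen with earlier results of these data known. Genes given in full were those called and, within each role, those of highest and lowest median CPM; others are named for single tumours or for their rank, after their values were seen. The muscle list, 4 of 10 correlations, the fits without single tumours and the fits without pair 476 and 1439 or tumours 1431 and 621 were added after the data were seen. Results for a few other genes are not reported here.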

Additional observations from a re-analysis of the deposited data

How the results depend on the processing

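No paired analysis was possible because no replicate number in the labels is shared between genotypes; the fit with matched pairs is a block inferred from the values. In that fit p53R172H/fl against p53fl/fl had 2 genes called, p53R245W/fl against p53fl/fl 3 and p53R245W/fl against p53R172H/fl 293, and 0 marrow genes in each. Over all genes, p53R172H/fl against p53fl/fl had 708 calls, with 51 when matched libraries were summed, 1167 without libraries of low Col1a1, 1174 by DESeq2, 95, 1 and 0 within sets A, B and C, and 391 to 910 when 1 unit was left out. p53R245W/fl against p53fl/fl had 3365 calls, with 1005 with set as a covariate, 1783 in the sums and 4 and 0 within sets B and C; marrow genes called were 0 to 1 when 1 unit was left out. p53R245W/fl against p53R172H/fl had 5829 calls, with 3874 with Col1a1 as a covariate, 3000 in the sums and 615 and 3 within sets B and C; its 1 marrow call was 0 under these settings and without libraries of low Col1a1, and 1 to 2 when 1 unit was left out. Between M and NM prefixes DESeq2 called 2 marrow genes. The cause was not tested, beyond the smaller number of samples within sets and in sums. Over the marrow genes and 5 comparisons, 1192 of 1202 single-gene values were called in neither fit or in both with the same sign. Of the rest, 7 were weaker, 3 stronger and 0 reversed. Signs did change among genes not called. For p53R245W/fl against p53fl/fl, 18 of 29 had the opposite sign to the main fit within set C, 11 within set B and 10 with set as a covariate. For p53R172H/fl against p53fl/fl these were 12, 14 and 11, and for p53R245W/fl against p53R172H/fl 9, 10 and 12. Correlations that crossed the threshold were Elane with Camp (rho 0.547 in set A), Camp with Cxcr2 (r 0.400 in set B; rho 0.485, 0.311 and 0.463 in sets A, B and C and 0.342 without the 2 farthest units), Camp with Alas2 (rho 0.523 in set C), Camp with Col1a1 (r -0.124 in set A, reversed; rho 0.653 and 0.664 in sets B and C and 0.376 with relative log expression factors), Klf1 with Camp (r 0.326 and rho 0.249 in set B), Klf1 with Hbb-bs (r 0.555 and rho 0.577 in set C), Sptb with Ckm (r 0.549 and rho 0.426 in set A, rho 0.461 in set B) and Sptb with Hbb-bs (rho 0.527 in set C). Depth limits Ctsg, Ms4a3, Cebpe, Gata1, Rhag and Tspo2, whose medians lie at or under 3 counts in most libraries; with no filter all 35 genes were tested and 0 of these 6 were called.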

Other observations

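Genes of other blood lineages were read from the same libraries. The genotype comparison here counts matched libraries separately, so its p-values are too small. With pairs and set in limma voom, 1.55% of all genes were called in p53R245W/fl against p53R172H/fl tumours. In p53R245W/fl against p53R172H/fl tumours, edgeR called Pax5, the B lineage transcription factor gene, lower (log2 fold change -1.67, SE 0.66, adjusted p 0.0476), beside 30.9% of all genes called in this comparison. In the same comparison, edgeR called 1 of 10 megakaryocyte and platelet genes, Pf4, a platelet chemokine (log2 fold change 1.19, SE 0.41, adjusted p 0.0229), and 1 of 8 stem and progenitor genes, Cd34 (0.80, SE 0.30, adjusted p 0.0368), both below that share.

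In set B against the match of each library, edgeR called 3 of 8 megakaryocyte and platelet genes, 1 higher and 2 lower. The lower genes were Ppbp (log2 fold change -1.04, SE 0.29, adjusted p 0.00417) and Pf4 (-0.80, SE 0.14, adjusted p 4.32e-05), which both encode chemokines of platelet granules. Of 23 further granulocyte genes, edgeR called 2 higher and 5 lower, among them the formyl peptide receptor genes Fpr2 (-1.18, SE 0.27, adjusted p 0.000632) and Fpr1 (-1.07, SE 0.34, adjusted p 0.0114). All 4 stem and progenitor genes that edgeR called, of 8 tested, were higher in set B. These counts stand beside the 50.2% of all genes that edgeR called between set B and its matches. The genes named here were picked after their values were seen.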
